A study of Mus musculus with 4 samples.

Results

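MHC class I and peptide loading genes are described here in osteoclast progenitors from mice that lack Ptip (gene symbol Paxip1), a protein that works in histone methyltransferase complexes. The members were 10 genes chosen by name, and all 10 were among the 18276 genes of the table. Progenitors were sorted from fresh bone marrow by the absence of B220, CD3 and Mac-1 and the presence of CD115, and their poly(A) RNA was sequenced. In 2 libraries the mice carried floxed Ptip alleles and the Mx-1Cre driver (Ptip_KO), and in 2 libraries they carried Mx-1Cre with wild-type Ptip (WT). Mx-1Cre is induced by interferon and acts in many cell types of the marrow, and it was present in both groups. The strain label of all 4 libraries is B6;129, a mixed background, and no age is given here. The series text calls the replicates independent without tying them to different mice, so p-values measure only the spread between these libraries. For Ptip_KO that spread may be technical, while the WT libraries differed in sex-linked genes, as given below.

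Class I molecules display peptides from inside the cell to CD8 T cells and to natural killer cells. A heavy chain, encoded by an H2 gene, pairs with beta-2 microglobulin, and peptides cut by the proteasome enter the endoplasmic reticulum through the transporter made of Tap1 and Tap2. Tapasin (Tapbp) bridges the transporter and the heavy chain during loading, and Nlrc5 is a transcriptional coactivator of class I genes. H2-K1 and H2-D1 encode the classical heavy chains, and H2-Q7 (Qa-2), H2-T22 and H2-T23 (Qa-1) encode non-classical ones. Which H2-Q and H2-T genes are present differs between mouse strains, and the MHC haplotype of each mouse is not given in the sources used here.

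Promoter letters show what several members share. The RefSeq promoter table (GRCm38.p6) held 8 members, and the 200 bases before the most upstream start of each were searched on both strands. The X2 core TGACG, bound by CREB factors, followed after 18 to 22 bases by the Y core ATTGG, bound by NF-Y, occurred in 4 of the 8 members, H2-K1, H2-D1, H2-Q7 and B2m. This spaced pair occurred in 0.252% of 27025 promoters. The same 4 members held the kappa B pattern (GGG, any 2 bases, TT, any base, CC), which 3.3% of promoters held. The interferon element TTTCNNTT was in 6 of the 8 members and in 17.2% of promoters. The X2 core on its own was in 6 members and in 15.8% of promoters, and the Y core on its own in 7 members and in 30.1%. Motifs and spacing were chosen with these sequences in view, and a match describes letters only. The windows of H2-D1 and Tapbp lie inside, and that of H2-T23 partly inside, the GENCODE spans of these genes, which start farther upstream than the RefSeq starts used. Windows are shown 5′ to 3′ for a classical chain, H2-K1 (chr17:34000348-34000547, minus strand), a non-classical chain, H2-Q7 (chr17:35438955-35439154, plus strand), the shared light chain, B2m (chr2:122147487-122147686, plus strand), and a chain without the spaced pair, H2-T22 (chr17:36042743-36042942, minus strand). Capitals mark the spaced cores, the kappa B pattern and the interferon element.
H2-K1: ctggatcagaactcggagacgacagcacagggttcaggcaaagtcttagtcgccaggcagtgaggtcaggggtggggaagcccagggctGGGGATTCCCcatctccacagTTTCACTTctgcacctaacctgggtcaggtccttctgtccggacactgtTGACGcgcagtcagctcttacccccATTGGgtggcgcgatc
H2-Q7: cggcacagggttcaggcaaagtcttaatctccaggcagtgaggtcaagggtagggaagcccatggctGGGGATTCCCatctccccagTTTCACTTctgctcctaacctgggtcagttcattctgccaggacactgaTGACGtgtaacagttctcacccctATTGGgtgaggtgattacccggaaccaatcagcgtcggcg
B2m: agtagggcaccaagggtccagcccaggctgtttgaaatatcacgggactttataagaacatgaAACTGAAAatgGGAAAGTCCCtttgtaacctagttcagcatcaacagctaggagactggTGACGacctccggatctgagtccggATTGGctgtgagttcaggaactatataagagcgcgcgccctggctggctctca
H2-T22: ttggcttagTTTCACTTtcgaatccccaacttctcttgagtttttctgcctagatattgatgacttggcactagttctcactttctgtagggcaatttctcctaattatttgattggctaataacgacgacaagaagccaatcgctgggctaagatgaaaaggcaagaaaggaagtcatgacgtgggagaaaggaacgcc

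The table held 67592972 to 77773478 reads per library. Members had between 1279 and 135886 reads in a library. Levels are given in CPM, which are reads relative to a library size scaled by the authors. Paxip1, the deleted gene, was at 5.10 and 3.73 CPM in Ptip_KO and at 106 and 103 CPM in WT. Csf1r, which encodes CD115, had 606 to 825 CPM, while none of 6 T cell markers reached 1 CPM in 2 libraries, and Itgam, a chain of Mac-1, had 35.1 to 42.1 CPM. Of 10 progenitor and monocyte markers 2 fell, Kit to 14.4 and 16.1 CPM in Ptip_KO, against 49.5 and 73.1 CPM in WT, and Flt3 to 42.8 and 34.5 CPM in Ptip_KO, against 67.6 and 77.8 CPM in WT. Of 3 tested B cell markers, a type that was sorted out, Cd79b rose to 52.4 and 49.1 CPM in Ptip_KO, against 27.0 and 34.8 CPM in WT (limma adjusted p = 0.0454). By the same test, 2.43% of all tested genes rose and 3.86% fell. The part of these cell type markers in the values below was not tested. Ddx3y, a gene of the Y chromosome, stood at 0.101 CPM in WT replicate 2 and at 69.1 CPM or more in the other 3 libraries, and Xist reached 298 CPM in WT replicate 2 alone. Whether the sex of the mice bears on the values below was not tested.

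The comparison of Ptip_KO with WT asks whether class I presentation genes differ when Ptip is deleted. None of the 10 members passed the test. Mean levels in Ptip_KO were 1.15 to 1.23 times those in WT for B2m, H2-K1, H2-T22, Tap1 and Nlrc5, 1.99 times for H2-Q7, 0.819 times for H2-T23, and 0.958 to 1.02 times for H2-D1, Tap2 and Tapbp. By limma on log2(CPM + 1), with Benjamini-Hochberg adjustment over all 12357 tested genes, 0 of 10 members had an adjusted p under 0.05, beside 6.29% of all tested genes (2.43% higher and 3.86% lower). At an unadjusted p under 0.05 there were 4 members, beside 23.8% of all tested genes. The edgeR quasi-likelihood test on recovered reads called 0 members, beside 5.34% of all genes, and DESeq2 called 4, beside 15.4%. The groups did not overlap for 6 members, 5 higher and 1 lower in Ptip_KO, beside 55.1% of all tested genes (27.7% higher). The median log2 fold change of the members was 0.20, beside 0.00 for all tested genes, and 7 members had a positive and 3 a negative value.

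**Figure D1:**
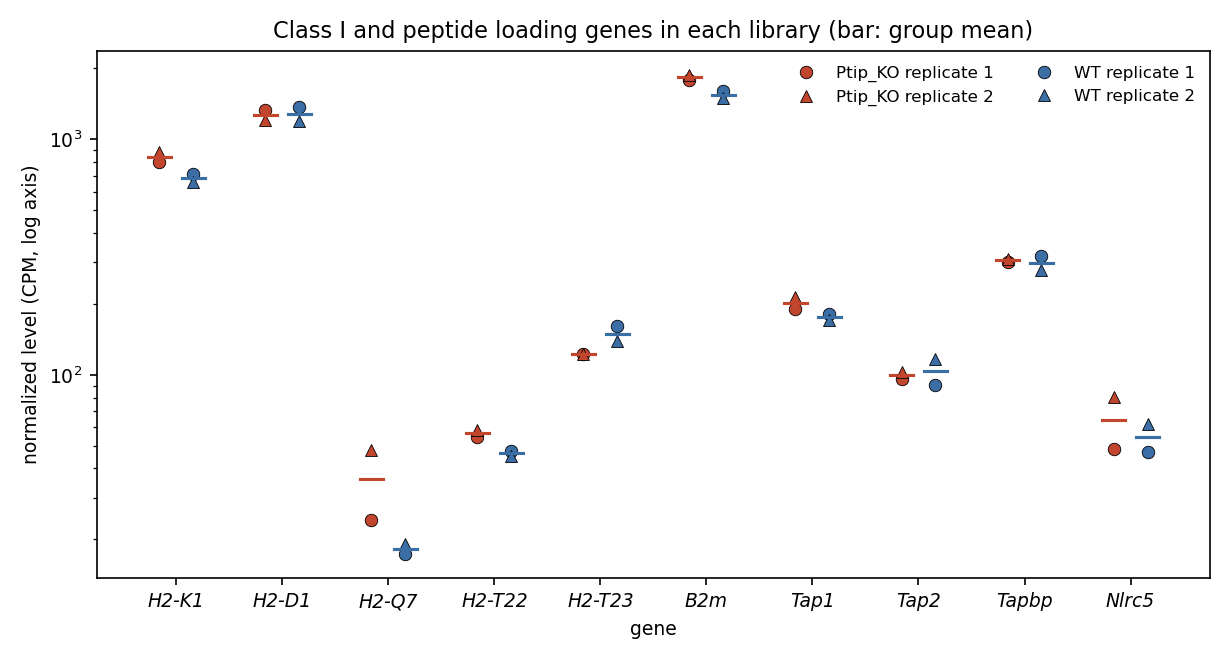
Normalized level (CPM, log axis) of the 10 members in each library, with Ptip_KO left of WT, circles for replicate 1, triangles for replicate 2 and bars for group means. The groups differ little beside the distances between genes, and the replicates of Ptip_KO stand farthest apart for H2-Q7 and Nlrc5.

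Among the heavy chains, the classical genes H2-K1 and H2-D1 were the most abundant. H2-K1 was at 799 and 884 CPM in Ptip_KO and at 712 and 662 CPM in WT. Both Ptip_KO libraries were above both WT libraries, and the log2 fold change was 0.29 (95% interval 0.02 to 0.57, limma adjusted p = 0.189). DESeq2 gave an adjusted p of 0.0300. H2-D1 was at 1335 and 1204 CPM in Ptip_KO and at 1369 and 1193 CPM in WT. These groups overlapped, and the log2 fold change was -0.01 with an interval of -0.34 to 0.31 (limma adjusted p = 0.971). H2-K1 (ENSMUSG00000061232.15) lies on chromosome 17 at 33996017 to 34000347 and H2-D1 (ENSMUSG00000073411.11) at 35262730 to 35267499 (GRCm38). Their transcripts matched at 90.6% of 1404 aligned bases.

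The non-classical members differed in sign. H2-Q7 was at 24.2 and 48.1 CPM in Ptip_KO and at 17.4 and 19.0 CPM in WT. The groups did not overlap, but the Ptip_KO libraries differed from each other by 1.99 times, as much as the group means did. Its log2 fold change was 0.88 (interval 0.13 to 1.62, limma adjusted p = 0.156). The adjusted p was 0.0134 by DESeq2. Without Ptip_KO replicate 1 it was 0.00556 at a log2 fold change of 1.36, and without Ptip_KO replicate 2 it was 0.356 at 0.40. H2-T22, whose product is a ligand of a subset of gamma delta T cells, was at 54.6 and 58.0 CPM in Ptip_KO and at 47.6 and 45.3 CPM in WT. Both Ptip_KO libraries were higher, with a log2 fold change of 0.27 (interval 0.05 to 0.49, limma adjusted p = 0.143). H2-T23, whose product presents leader peptides to NKG2 receptors, was at 122 and 123 CPM in Ptip_KO and at 161 and 139 CPM in WT. Its Ptip_KO libraries were the lower ones, with a log2 fold change of -0.28 (interval -0.53 to -0.03, limma adjusted p = 0.168, DESeq2 adjusted p = 0.0467). On chromosome 17 (GRCm38), H2-Q7 (ENSMUSG00000060550.15) spans 35439155 to 35443773 on the plus strand, and H2-T23 (ENSMUSG00000067212.8) and H2-T22 (ENSMUSG00000056116.18) are neighbours on the minus strand, at 36029773 to 36032855 and at 36037128 to 36042747.

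Reads of these chains are hard to assign, since they are close relatives. Where near copies are transcript pairs with 95% identity along 50% or more of the shorter one, H2-Q7 matched H2-Q5 (96.4%) and H2-Q6 (95.1%), H2-T22 matched H2-T10 (96.5%), H2-T23 matched H2-T-ps (95.6%), and H2-K1 and H2-D1 matched each other over 251 bases (95.2%). How reads with several matches were counted is not given in the sources used here, so the split among these genes is uncertain. Summed over the 14 class I heavy chain genes of the MHC in the table, the level was 2495 and 2528 CPM in Ptip_KO, against 2443 and 2199 CPM in WT, a ratio of 1.08. Both Ptip_KO sums were above both WT sums, and the WT libraries stood farther from each other than Ptip_KO replicate 1 from WT replicate 1. The classical genes made up 85.5% and 82.6% of it in Ptip_KO and 85.2% and 84.3% in WT. The 5 H2-Q genes summed to 118 and 183 CPM in Ptip_KO and to 85.8 and 94.7 CPM in WT. This was 4.72% and 7.24% of the class I sum in Ptip_KO and 3.51% and 4.30% in WT. Of these genes H2-Q10, named after its values were seen, went the other way. H2-Q10 was at 5.04 and 6.79 CPM in Ptip_KO and at 8.42 and 9.60 CPM in WT (limma adjusted p = 0.128). The 4 H2-T genes summed to 207 and 216 CPM in Ptip_KO and to 247 and 221 CPM in WT.

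The light chain B2m was the most abundant member. It was at 1785 and 1881 CPM in Ptip_KO and at 1609 and 1491 CPM in WT. Both Ptip_KO libraries were above both WT libraries, with a log2 fold change of 0.24 (interval -0.06 to 0.55, limma adjusted p = 0.303, DESeq2 adjusted p = 0.0418). B2m (ENSMUSG00000060802.8) lies on chromosome 2 at 122147686 to 122153083, outside the MHC, and no other gene has a near-identical transcript by the criteria above.

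For peptide transport, Tap1 was at 190 and 214 CPM in Ptip_KO and at 181 and 171 CPM in WT. The Ptip_KO libraries were the higher ones, with a log2 fold change of 0.20 (interval -0.05 to 0.44, limma adjusted p = 0.303). Tap2, the other chain of the transporter, was at 95.6 and 103 CPM in Ptip_KO and at 90.3 and 117 CPM in WT. Its Ptip_KO values lay between the WT values, with a log2 fold change of -0.05 (interval -0.40 to 0.29, limma adjusted p = 0.872). Tapbp was at 301 and 311 CPM in Ptip_KO, also between the WT values of 320 and 279 CPM. Its log2 fold change was 0.03 (interval -0.22 to 0.29, limma adjusted p = 0.884). Tap1 overlaps the immunoproteasome gene Psmb9 on the opposite strand and Tapbp overlaps Zbtb22 on the same strand, so their counts can hold reads of the neighbour, since whether counting used strand is not given in the sources used here. Tapbp (ENSMUSG00000024308.14) lies at 33915899 to 33929292 on chromosome 17, Tap1 (ENSMUSG00000037321.17) at 34187553 to 34197225 and Tap2 (ENSMUSG00000024339.12) at 34203527 to 34216321. Psmb9 averaged 84.1 ± 2.20 CPM in Ptip_KO, against 76.7 ± 1.24 CPM in WT (SD, n = 2 each), and Zbtb22 averaged 58.4 CPM in Ptip_KO, against 51.9 CPM in WT.

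Nlrc5 was at 48.5 and 80.7 CPM in Ptip_KO and at 47.0 and 62.0 CPM in WT. The groups overlapped, and replicate 2 was the higher library in each group. The log2 fold change was 0.21 with an interval of -0.43 to 0.85 (limma adjusted p = 0.679), and without Ptip_KO replicate 2 it was -0.15. Nlrc5 (ENSMUSG00000074151.13) lies on chromosome 8 at 94434356 to 94527272.

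**Figure D2:**
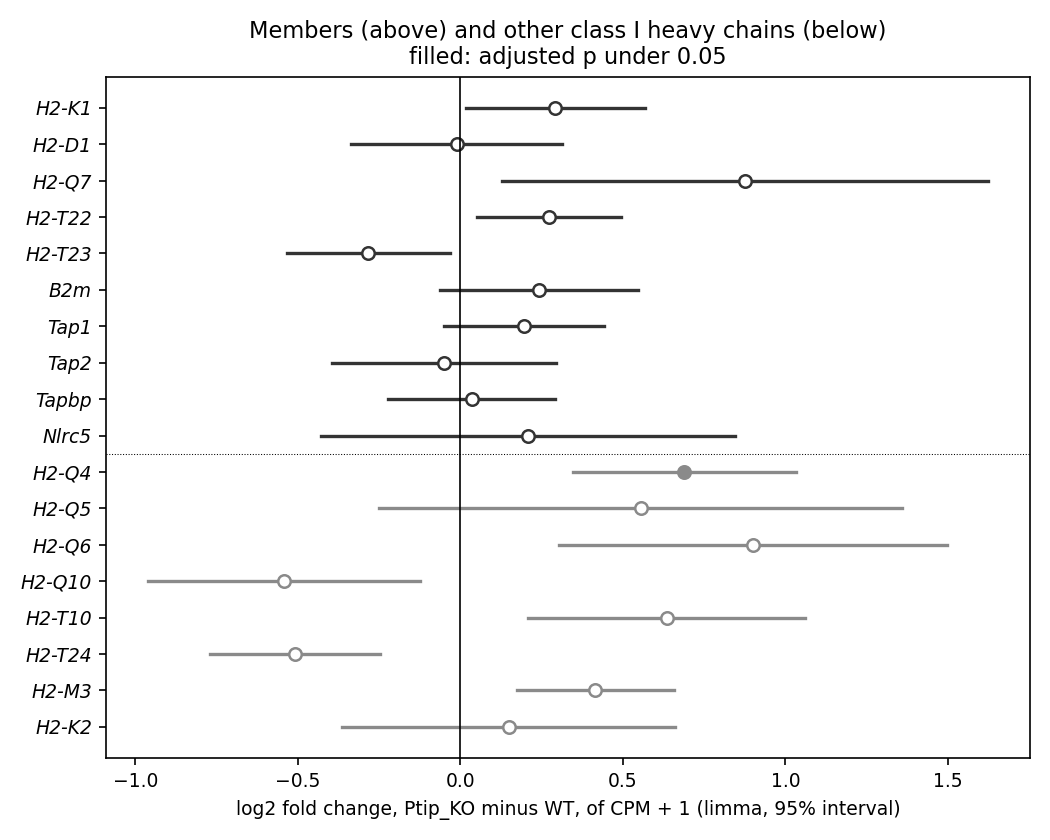
Log2 fold change (Ptip_KO minus WT, of CPM + 1, horizontal axis) with its 95% limma interval for the 10 members above the dotted line and for 8 other class I heavy chains below it. Open points did not pass, and the filled point is H2-Q4 (0.69), while no member is filled.

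Per kilobase of exon, the order in Ptip_KO was B2m, H2-D1, H2-K1, Tapbp, H2-T23, Tap1, Tap2, H2-T22, H2-Q7 and Nlrc5. B2m averaged 2131 ± 79.1 CPM per kb in Ptip_KO and 1802 ± 97.2 in WT (SD, n = 2 each). H2-D1 averaged 492 ± 35.9 CPM per kb in Ptip_KO and 497 ± 48.2 in WT, and H2-K1 averaged 287 ± 20.5 in Ptip_KO and 234 ± 12.2 in WT. At the low end, Nlrc5 averaged 7.60 ± 2.68 CPM per kb in Ptip_KO and 6.42 ± 1.254 in WT, and H2-Q7 averaged 8.48 ± 3.96 in Ptip_KO and 4.27 ± 0.279 in WT. H2-Q7 and Nlrc5 overlapped in Ptip_KO and stood in the other order in WT. The other neighbours kept this order in WT, where Tap1 (32.1 ± 1.39) and Tap2 (27.4 ± 4.995) were within their spread.

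Among the other class I heavy chains, H2-Q4 was the gene that passed. Of 27 listed genes 9 were in the table and 8 were tested. Of these 8, 1 rose and 0 fell, beside 2.43% and 3.86% of all tested genes. A positive log2 fold change was seen in 6, and the median was 0.49, beside 0.00 for all tested genes. By limma 6 of the 8 had an unadjusted p under 0.05, beside 23.8% of all tested genes. Both Ptip_KO libraries were above both WT libraries for 4 and below for 2, beside 55.1% of all tested genes in either direction. H2-Q4 rose to 59.7 and 76.1 CPM in Ptip_KO, against 39.3 and 43.7 CPM in WT (log2 fold change 0.69, SE 0.14, limma adjusted p = 0.0479). This call was lost at a pseudocount of 5 (limma adjusted p = 0.0523), by edgeR (0.0687), with libraries scaled to the same sum (0.0743) and without Ptip_KO replicate 2 (0.157). H2-Q6 was at 21.4 and 36.5 CPM in Ptip_KO and at 14.6 and 14.4 CPM in WT (limma adjusted p = 0.0913), so that like H2-Q7 it was higher in both Ptip_KO libraries and highest in replicate 2. H2-M3, which presents formylated peptides, was at 27.4 and 28.7 CPM in Ptip_KO and at 21.4 and 20.1 CPM in WT (limma adjusted p = 0.0690). H2-T24 was at 20.3 and 21.97 CPM in Ptip_KO and at 32.0 and 29.0 CPM in WT (limma adjusted p = 0.0521). Its neighbour H2-T23 was also lower in both Ptip_KO libraries, while H2-T22, next to H2-T23, was higher in both. H2-T10, named after its values were seen because it is the near copy of H2-T22, was at 9.96 and 13.1 CPM in Ptip_KO and at 6.40 and 7.68 CPM in WT (limma adjusted p = 0.0937). DESeq2 called 5 of these 8 genes, beside 15.4% of all tested genes, and the calls also changed with single libraries left out.

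Along chromosome 17, 98 tested genes lay between the start of H2-K1 and the end of H2-M2 (33996017 to 37483552), and 2 of them rose and 8 fell. These calls were 10 of 98 genes, beside 6.29% of all tested genes (2.43% higher and 3.86% lower). The median log2 fold change of these genes was -0.01, and the groups did not overlap for 54 of them, which is 55.1%, the share among all tested genes. Class I genes supplied 1 of the calls, H2-Q4, among 12 tested. Of the 10 calls, 5 belonged to class II presentation, namely H2-Oa, H2-DMa, H2-Ab1, H2-Aa and H2-Eb1. The others were Ltb, which encodes lymphotoxin beta, Ddah2, Ddr1 and Trim10, all lower in Ptip_KO. Ltb averaged 1.31 ± 0.484 CPM in Ptip_KO, against 5.15 ± 0.255 CPM in WT (SD, n = 2 each), and Trim10 averaged 9.57 ± 2.71 CPM in Ptip_KO, against 28.4 ± 9.33 CPM in WT. By edgeR, Ddah2 and Trim10 missed the threshold, at adjusted p of 0.0505 and 0.0619, and Ddah2, Ddr1 and Trim10 did so without Ptip_KO replicate 1 by limma (0.0963, 0.117 and 0.0533). Ddr1 also missed it without Ptip_KO replicate 2 (limma adjusted p = 0.188), and all of Ddah2, Ddr1 and Trim10 when libraries were scaled to the same sum (0.0562, 0.0524 and 0.0761).

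**Figure D3:**
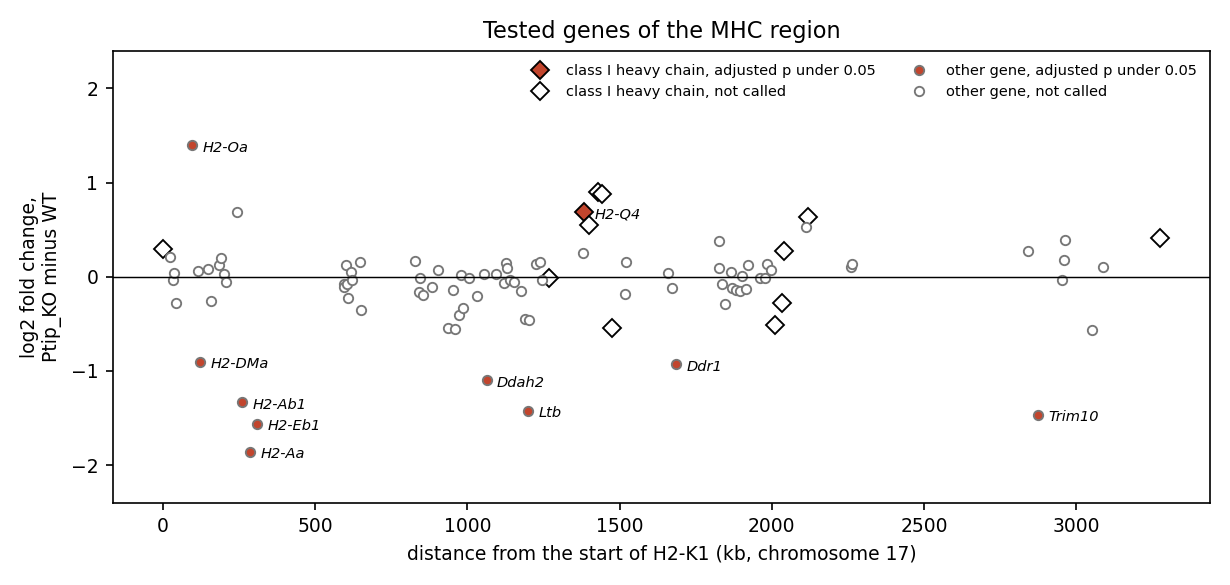
Log2 fold change (Ptip_KO minus WT, vertical axis) of 98 tested genes against distance from the start of H2-K1 on chromosome 17 (kb), with diamonds for class I heavy chains and filled symbols for genes past the threshold. Class I diamonds lie between -0.54 and 0.90, and the lowest filled points near the left edge are class II genes.

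Class I and class II genes can be set side by side. Of 10 class II genes, 1 rose and 5 fell, beside 2.43% and 3.86% of all tested genes, and the median log2 fold change was -1.10. Ciita, the class II coactivator and a relative of Nlrc5, fell to 1.12 and 1.34 CPM in Ptip_KO, against 9.999 and 4.82 CPM in WT (log2 fold change -1.85, interval -2.61 to -1.08, limma adjusted p = 0.0306). The chain gene H2-Aa fell to 6.95 and 7.16 CPM in Ptip_KO, against 37.9 and 20.9 CPM in WT, and H2-Oa, a chain of the class II loading modulator H2-O, rose to 19.4 and 17.5 CPM in Ptip_KO, against 5.75 and 7.11 CPM in WT. The intervals of Ciita and Nlrc5 did not overlap, and the difference between these genes was not itself tested. Of 7 tested macrophage markers 6 fell, beside 3.86% of all tested genes. The 8 markers summed to 18.8 and 22.7 CPM in Ptip_KO and to 124 and 99.1 CPM in WT, with none listed at 0. Of 6 tested dendritic cell markers 2 fell, beside the same 3.86%. These 8 markers summed to 76.3 and 56.1 CPM in Ptip_KO and to 116 and 105 CPM in WT. The part of macrophage and dendritic cell markers in the class II values was not tested. In bulk RNA fewer cells of a type and less RNA per cell cannot be told apart. Of 8 erythroid markers 5 fell, also beside 3.86%, with sums of 637 and 874 CPM in Ptip_KO, against 1605 and 4035 CPM in WT. Of 8 neutrophil markers 0 passed by limma, and 3 had an unadjusted p under 0.05, beside 23.8% of all tested genes. Their median log2 fold change was -1.22, with 7 below 0. Among them S100a9 was at 383 and 216 CPM in Ptip_KO and at 714 and 1242 CPM in WT (limma adjusted p = 0.0509). The B cell gene Cd79b, given above, was higher in Ptip_KO, as H2-Oa was.

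No gene of the lists for cutting and loading peptides passed by limma. Of 11 partners in the endoplasmic reticulum, 0 passed by limma or edgeR, and the median log2 fold change was -0.17. By limma 2 had an unadjusted p under 0.05, beside 23.8% of all tested genes. DESeq2 called 3 lower, beside 15.4% of all tested genes called in either direction. Both Ptip_KO libraries were below both WT libraries for 7 of the 11 partners and above for 1. Among all 12357 tested genes this held for 3378 and 3427. The chaperones of heavy chain folding were among the 7 lower ones. Hspa5 (BiP) was at 621 and 636 CPM in Ptip_KO and at 792 and 762 CPM in WT (limma adjusted p = 0.136). Calreticulin (Calr) was at 1344 and 1370 CPM in Ptip_KO and at 1622 and 1674 CPM in WT (limma adjusted p = 0.216). Calnexin (Canx) was at 758 and 723 CPM in Ptip_KO and at 914 and 872 CPM in WT (limma adjusted p = 0.190). Erap1, the aminopeptidase that trims peptides, was outside the rule for names and is given for its role, with 173 and 176 CPM in Ptip_KO, against 167 and 165 CPM in WT. Of 6 tested immunoproteasome genes, 0 passed by limma, edgeR or DESeq2 and 0 had an unadjusted p under 0.05, with log2 fold changes from -0.09 to 0.13. Of 16 constitutive proteasome genes 0 passed by limma or edgeR, and the median was -0.05. An unadjusted p under 0.05 by limma was seen in 2, and DESeq2 called 1 lower, beside the same 23.8% and 15.4%.

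Among 27 tested regulators of class I transcription, 1 fell, 0 rose, and the median log2 fold change was 0.02. With 3.86% of all tested genes called lower, 1 of 27 is near the background. Ifngr1, the ligand-binding chain of the interferon gamma receptor, fell to 171 and 161 CPM in Ptip_KO, against 251 and 251 CPM in WT (log2 fold change -0.59, SE 0.08, limma adjusted p = 0.0216). Its adjusted p was 0.0785 without Ptip_KO replicate 1 and 0.125 without Ptip_KO replicate 2. Socs1, an inhibitor of interferon signalling, was at 3.40 and 6.18 CPM in Ptip_KO and at 2.70 and 2.75 CPM in WT (limma adjusted p = 0.226). Irf1, an interferon factor that acts on class I promoters, was at 88.9 and 128 CPM in Ptip_KO and at 75.4 and 84.4 CPM in WT (limma adjusted p = 0.236). Both Ptip_KO libraries were above WT, and replicate 2 was the highest, as for H2-Q7. Of 25 interferon response genes, 3 rose, namely Oas1a (log2 fold change 0.63), Ifit2 (0.55) and Ifih1 (0.51), 1 fell, Rsad2 (-1.91), and the median was 0.12, where 2.43% of all tested genes were called higher and 3.86% lower. At a pseudocount of 5 or by edgeR, 2 were called higher and 0 lower. With libraries scaled to the same sum 1 was higher and 0 lower, and with a robust variance prior 3 and 0. DESeq2 called 6 higher and 1 lower, beside 15.4% of all tested genes called in either direction. The calls also changed with single libraries left out. The part of these interferon response genes in the class I values was not tested.

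Outside the MHC, 1 relative of class I changed. Of 6 tested class I like genes, 1 rose and 0 fell, beside 2.43% and 3.86% of all tested genes, and the median was 0.10. Mr1, which presents vitamin B metabolites to MAIT cells, rose to 11.98 and 9.58 CPM in Ptip_KO, against 3.20 and 3.61 CPM in WT (log2 fold change 1.41, SE 0.16, limma adjusted p = 0.0115). Its call was kept under all 14 alternatives. Fcgrt, the neonatal Fc receptor, was at 34.0 and 25.1 CPM in Ptip_KO and at 49.95 and 46.0 CPM in WT (limma adjusted p = 0.0619). It passed in 5 of the alternatives, among them DESeq2 (adjusted p = 0.00100).

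**Figure D4:**
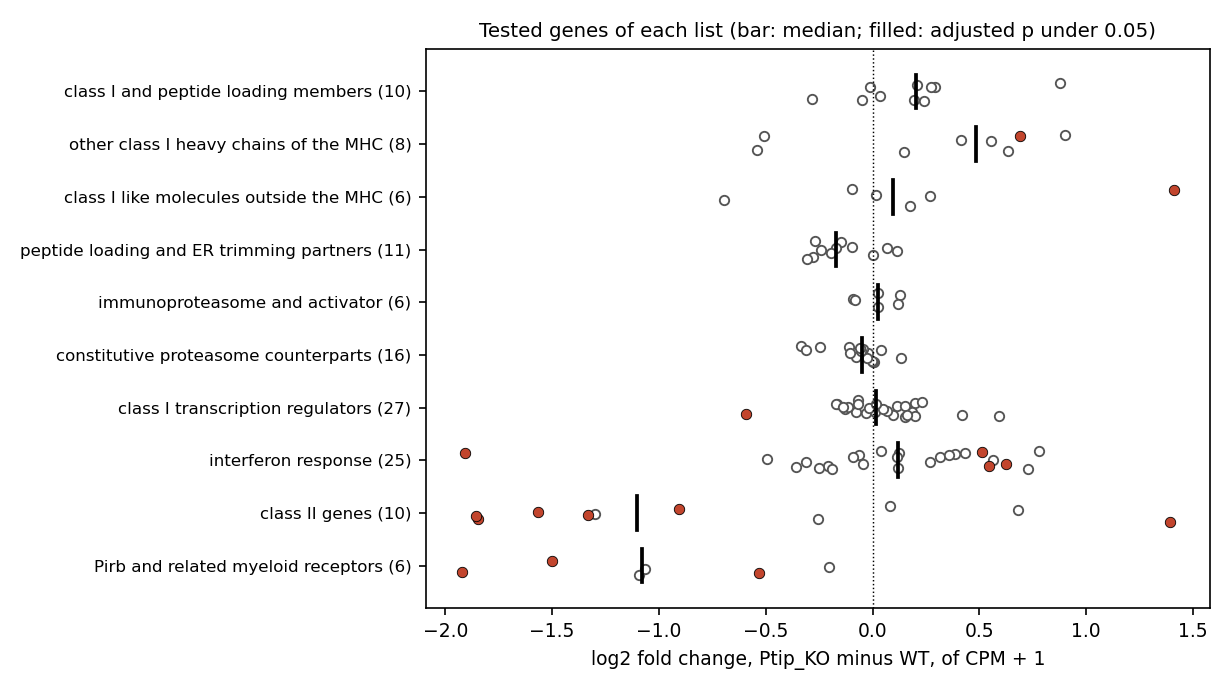
Log2 fold change (Ptip_KO minus WT, horizontal axis) of each tested gene of 10 lists, with the number tested in parentheses, bars for medians and filled points for genes past the threshold. The class I and peptide loading list has no filled point and a median of 0.20, and the class II list has 6 filled points and a median of -1.10.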

How the data were processed

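Per the labels' protocols, libraries were made with the Illumina TruSeq Stranded mRNA kit. Build mm10, edgeR 3.8.6, HTSeq 0.6.0 and TopHat2 2.0.10 are listed in the submitters' processing notes without roles. Each deposited value is a signal for a gene, which the name the authors gave the table describes as edgeR CPM for an effective library size, so libraries do not sum to a fixed total. Every value was a whole multiple of what 1 read is worth in its library, so 100% of values gave whole reads (within 0.01 read), and 3 reads were worth 0.0380 to 0.0428 CPM. Columns were matched to samples by description, and the column of WT replicate 2, so numbered by its title, carries the number 3.

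Members and lists (10 gene lists and 10 marker lists) were chosen with earlier results of these data known. The test covered 12357 genes that reached 1 CPM in 2 or more libraries, using limma 3.58.1 (R 4.3.3) on log2(CPM + 1), trended prior, 2-sided, Benjamini-Hochberg at 0.05. Fold changes on this scale understate changes of low genes. Exact permutation of 2 against 2 cannot give p under 0.333. No gene set test was run. Named were all members, of each list the called genes or, from the smallest p on, at most 4 genes, and called genes of the MHC region. The search for genes patterned like a called member did not apply, since no member was called. Recovered reads were tested with edgeR 4.0.16 and DESeq2 1.42.0. Near-identical transcripts came from BLAST 2.17.0 on GENCODE M21 transcripts (GRCm38). Other alternatives changed the pseudocount (0.25, 5), the filter (none, 5 CPM), the scaling, the variance prior and the block, or left out a library. Simulated data had 200 of 12357 genes changed. In these, limma found 4% of 1.25-fold, 36% of 1.5-fold and 76% of 2-fold changes, and made 5 false calls. Replicates were not the same library, with a chi-square per degree of freedom of 54.5 for Ptip_KO and 117 for WT.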

Additional observations from a re-analysis of the deposited data

How the results depend on the processing

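Members had at least 1279 reads in each library. In simulated data limma found 4% of changes of the smallest simulated size, given above, and 36% of 1.5-fold changes. The number of members called was 0 in the limma fits with other pseudocounts, filters, scalings or variance prior, by edgeR and with the replicate block, 4 by DESeq2 (H2-K1, H2-Q7 and B2m higher, H2-T23 lower), and 0 to 1 with single libraries left out (H2-Q7 without Ptip_KO replicate 1). Small fold changes turned sign. H2-D1 was at 0.039 when rescaled to a common sum and at -0.11 to 0.088 with single libraries left out (above 0 without Ptip_KO replicate 2 or WT replicate 1). With single libraries left out, Tap2 ranged from -0.24 to 0.13 (above 0 without Ptip_KO replicate 1 or WT replicate 2), Tapbp from -0.065 to 0.13 (below 0 without WT replicate 2) and Nlrc5 from -0.15 to 0.57 (below 0 without Ptip_KO replicate 2). The cause was not tested. All tested genes called numbered 777, and 1906 by DESeq2, 1721 with the replicate block and 452 to 1620 with single libraries left out. Calls among the 74 pathway genes outside the members numbered 3, and 12 by DESeq2, 8 with the replicate block and 1 to 8 with single libraries left out. Libraries numbered alike by title (the column of WT replicate 2 is numbered 3) deviated from their group means with a correlation of 0.33 across genes, but with 2 pairs and no label the numbers are not taken to pair the samples. The ratio of summed class I levels was 1.08, 1.07 for the classical genes alone and 1.13 for the others.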

Other observations

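Pirb, its relatives and the lectin receptor Clec12a were examined as a list of myeloid receptors, not all of which bind class I, chosen with earlier results known. Of 6 tested genes, 3 fell and 0 rose, beside 3.86% and 2.43% of all tested genes. The median log2 fold change was -1.08, beside 0.00 for all tested genes. Pirb, an inhibitory receptor that binds class I, did not pass and was at 198 and 156 CPM in Ptip_KO and at 208 and 197 CPM in WT (limma adjusted p = 0.419), and was named for that role after its values were seen. Lilrb4a, an inhibitory receptor of the same family, fell to 15.9 and 15.9 CPM in Ptip_KO, against 41.3 and 53.4 CPM in WT (limma adjusted p = 0.00747). Lilra6, a relative of the activating type, fell to 30.5 and 21.5 CPM in Ptip_KO, against 118 and 84.7 CPM in WT (limma adjusted p = 0.0122), and reads of this family are hard to assign among close relatives. Clec12a fell to 229 and 202 CPM in Ptip_KO, against 318 and 304 CPM in WT (limma adjusted p = 0.0426). The count of lower genes was 5 without either WT library, 3 without Ptip_KO replicate 1 and 2 without Ptip_KO replicate 2. The falls of macrophage and dendritic cell markers given above stand beside these values, and their part was not tested.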
